A study of Mus musculus with 5 samples.

Results

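The cytosolic ribosomal protein genes encode the protein parts of the ribosome of the cytoplasm. They were taken as every gene of the count matrices whose symbol is Rpl or Rps with a number, Rplp0, Rplp1, Rplp2 or Rpsa, with pseudogene symbols left out and at least 100 UMIs (unique molecular identifiers, each of which marks 1 captured transcript) over all libraries. The pattern matched 84 of 27998 listed genes and 82 passed the minimum, 50 of the large subunit (Rpl) and 32 of the small subunit (Rps). Rpl10l with 0 UMIs and Rpl3l with 3 UMIs fell below it, and the lowest gene inside it was Rpl39l with 1838 UMIs. Of the 82 members, 80 had at least 10000 UMIs. Together they held 33.3% of 144528267 UMIs.

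The study profiled the mammary glands of ovariectomized BALB/cj mice, a model of surgical menopause, at 30 weeks of age by droplet single-cell RNA sequencing. All 5 groups had been ovariectomized 20 weeks before a treatment of 1 week. The group labelled Vehicle (OVX here) received DMSO, the group labelled E2 (OVX_E2) received 1 µg of estradiol per animal each day, and the group labelled E2+P4 (OVX_E2_P4) also received 0.1 mg of progesterone each day. The groups labelled E2+PBDE (OVX_E2_PBDE) and E2+P4+PBDE (OVX_E2_P4_PBDE) received the same hormones and ate food with 3 polybrominated diphenyl ethers, BDE-47 at 7.1, BDE-100 at 0.4 and BDE-153 at 0.9 mg per kg, which are flame retardants studied as endocrine disruptors. Food of the other 3 groups held DMSO. Each group is 1 library, and how many mice went into each is not given in the sources used here. Treatment, animal and library therefore cannot be told apart, no test between groups was possible, and every interval below covers counting error only.

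The 5 libraries held 14317 of 14344 barcodes after the quality thresholds, with 2229 to 3526 in each. Over all barcodes a library held 19982067 to 42012988 UMIs and a median of 5345 to 8698 UMIs per barcode. Of 14263 barcode sequences, 80 occurred in more than 1 library. Cells were grouped into classes by clustering each library without the ribosomal protein genes and naming clusters from fixed marker lists, and the classes are called "like" for that reason. Immune clusters of all 5 libraries were pooled and clustered again as 1 set to form the myeloid-like and T or NK-like classes. In luminal hormone-sensing (L-Hor-like) cells their 7 markers, including the estrogen and progesterone receptor genes, summed to 5742 to 7949 UMIs per 1000000 UMIs (CPM). In fibroblast-like cells their 6 markers, mainly collagens, summed to 20344 to 31468 CPM. Clusters were named from these same lists, so the sums describe the classes and do not test their names. The other classes were luminal alveolar (L-Alv-like), basal-like, endothelial-like, myeloid-like and T or NK-like cells. At the clustering resolution used, OVX held no separate L-Alv-like cluster, only 92 L-Hor-like cells and a mixed luminal cluster of 194 cells, while a resolution of 1.0 gave an L-Alv-like cluster of 31 cells there. The myeloid-like and T or NK-like classes held 10 to 35 cells in each library, and the endothelial-like clusters also carried pericyte markers.

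A ribosome is assembled from a large and a small subunit, each a core of ribosomal RNA that carries its own set of proteins. The mRNAs of these proteins are among the most abundant in growing cells. Many of them begin with a C followed by a run of pyrimidines, the 5′ terminal oligopyrimidine or TOP motif, through which growth signals by way of the mTOR kinase set their translation. A few members have a paralog, a second gene for a closely related protein that can take its place in the ribosome.

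The start sites of members are shown first, because the TOP motif is the sequence feature that the family is known for. A start was available in RefSeq (GRCm38.p6, the mm10 build the matrices use) for 61 of the 82 members. The motif searched was a C exactly at the listed start followed by at least 4 bases that are C or T, on the transcribed strand only. It was found in 13 of the 61 members (21.3%), 7 of 37 large-subunit and 6 of 24 small-subunit genes. Of all 27025 genes with a start, 813 held it (3.01%). When the motif could begin within 5 bases of the start, 29 members (47.5%) and 21.2% of all genes held it. None of 68 genes of mitochondrial ribosomal proteins and none of 4 paralogs matched exactly. Within 5 bases of the start 17 of the 68 (25%) and 2 of the 4 paralogs (50%) held the motif. These windows run 15 bases to each side of the listed start, capitals mark the pyrimidine run that begins at the start, and the 4 below hold the motif. Rps27 and Rpl38 are among the members with high ratios in a PBDE comparison.
Rpl15 (chr14:18270972-18271001, minus strand): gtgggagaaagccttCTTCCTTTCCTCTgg
Rps6 (chr4:86857353-86857382, minus strand): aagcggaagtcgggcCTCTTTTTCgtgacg
Rps27 (chr3:90213634-90213663, minus strand): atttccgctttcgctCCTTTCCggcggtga
Rpl38 (chr11:114668565-114668594, plus strand): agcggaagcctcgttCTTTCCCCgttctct

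The next 3 windows belong to members described below whose listed start held no such run of 5 pyrimidines. Rps28 had the highest ratios of the PBDE comparisons in L-Hor-like and fibroblast-like cells, and Rpl22l1 and Rpl39l are paralogs whose level depended on the cell class. Within 5 bases of the listed start the longest run that begins with a C was 8 bases in Rpl22l1, 3 in Rps28 and 2 in Rpl39l. That these letters are absent at the listed start says nothing about other start sites of the same gene.
Rps28 (chr17:33824548-33824577, minus strand): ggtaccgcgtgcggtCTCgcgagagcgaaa
Rpl22l1 (chr3:28805493-28805522, plus strand): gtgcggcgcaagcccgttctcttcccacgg
Rpl39l (chr16:10170213-10170242, plus strand): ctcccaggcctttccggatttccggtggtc

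Levels of single members ran from 12.7 to 9867 CPM over all cells. A transcript gives 1 tag at its 3′ end in this assay, so levels were not divided by length. The median member stood at 3921 CPM over all cells, 78 members lay between 1000 and 10000 CPM, and the 4 lower ones were the paralogs Rps27l (678 CPM), Rpl6l (460 CPM), Rpl7l1 (26.1 CPM) and Rpl39l (12.7 CPM). Among the 8 highest were Rpl41 (9867 CPM), Rpl13 (8607 CPM), Rps27 (8150 CPM), Rpl37a (7818 CPM), Rps19 (7596 CPM), Rpl32 (7338 CPM) and Rpl37 (6837 CPM). Rpl41 encodes the smallest protein of the large subunit, and Rps19 is the gene most often mutated in Diamond-Blackfan anemia. Rpl41 was lowest in OVX (6195 CPM), followed by OVX_E2 (8235 CPM), OVX_E2_P4 (9895 CPM), OVX_E2_PBDE (10816 CPM) and OVX_E2_P4_PBDE (13969 CPM). Over all cells 75 of 82 members had their lowest level in OVX. The 7 exceptions were Rps27, Rps29, Rps2, Rpl22l1, Rpl6l, Rpl7l1 and Rpl39l, named because they are the exceptions. How many of all genes were lowest in OVX was not counted, so 75 of 82 has no background beside it. Libraries differ in their cell makeup, with mostly fibroblast-like cells in OVX, so that the comparisons below were made within cell classes. The fibroblast-like class itself pools several clusters whose mix differed between libraries. Clusters with Akr1c18 among their leading genes held 1382 of 2564 cells (OVX), 543 of 938 (OVX_E2) and 697 and 641 of 1918 (OVX_E2_PBDE). Such clusters held 506 of 949 cells in OVX_E2_P4 and 663 of 886 in OVX_E2_P4_PBDE. The part of this mix in the results was not tested.

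**Figure D1:**
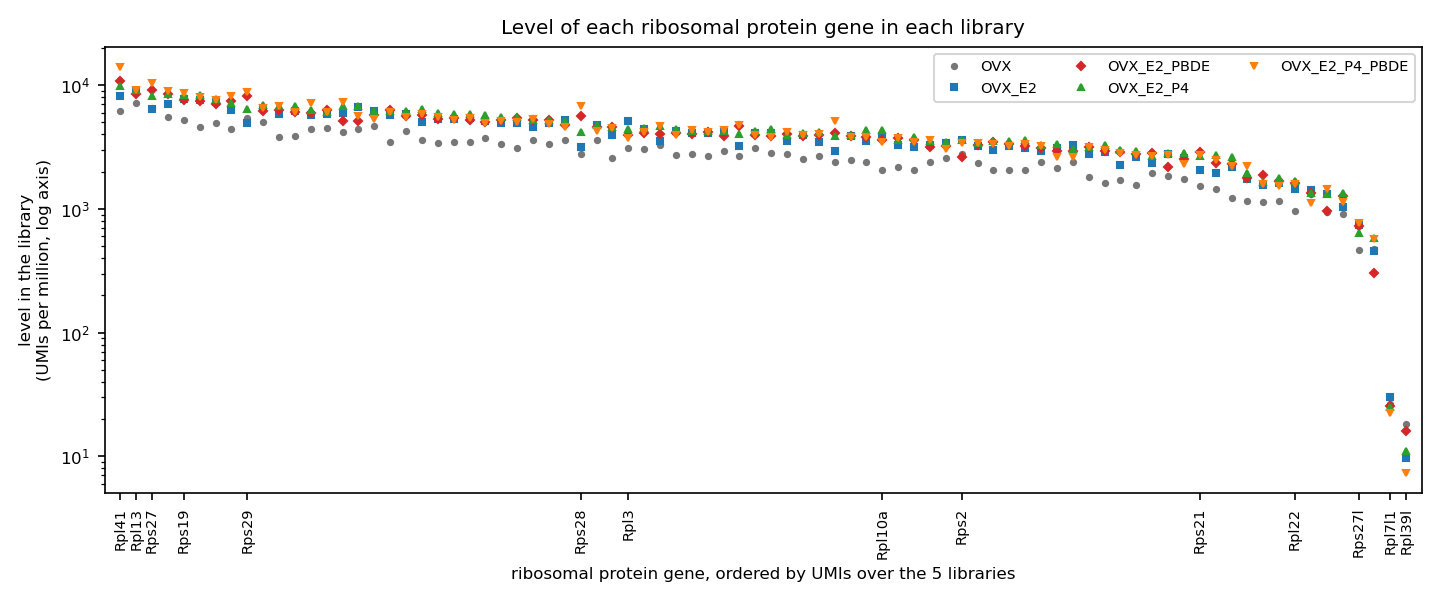
Level of each of the 82 members in each of the 5 libraries, all barcodes, in CPM on a log axis, members ordered by their UMIs over all libraries and 14 of them labelled. Most members form a plateau between 1000 and 10000 CPM, and Rpl7l1 and Rpl39l lie far below the rest. OVX (grey) lies lowest for 75 of the 82, a count not made over all genes.

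Many members have near-identical copies elsewhere in the genome, and the counting could split their UMIs. Counted were listed genes with UMIs and a Gm number, a pseudogene symbol (-ps) or the symbol Rps27rt. Of these, 34 matched the 3′ end of 23 members at 95% identity or more and held 1.72% of all UMIs. Matching genes under other symbols, such as Flt3l for Rpl13a and Gtpbp4 for Rpl7l1, were left out. The largest splits were between Rps18 (844847 UMIs) and Gm10260 (837899 UMIs), Rplp0 (837769 UMIs) and Gm8730 (560381 UMIs), and Rpl29 (170591 UMIs) and Gm10709 (266843 UMIs). Rplp1 shared its sequence with Gm10073 (259201 UMIs), Rpl41 with Gm10076 (167783 UMIs) and Rps27 with Rps27rt (45772 UMIs). Levels of these members are uncertain to that extent. Rps29, Rpl38, Rps21, Rpl10a and Rpl3 had no such copy in the list, and the copy of Rps28, Gm10263, had 4938 UMIs against 661372.

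The share of UMIs that came from the 82 members differed between cell classes within every library. It was highest in L-Alv-like cells, the secretory lineage of the gland, at 41.2% (OVX_E2), 43.1% (OVX_E2_P4), 44.8% (OVX_E2_PBDE) and 42.4% (OVX_E2_P4_PBDE). Endothelial-like cells were lowest in all 5 libraries, between 15.3% in OVX and 21.1% in OVX_E2_P4_PBDE. In the 4 estradiol-treated libraries the L-Alv-like share lay above that of every other of the 7 classes. Basal-like cells, the contractile outer layer, ranged from 24.4% in OVX to 40.7% in OVX_E2_P4_PBDE, T or NK-like cells from 30.3% to 37.3%, and myeloid-like cells from 19.8% to 29.9%. The 2 classes with the most cells for a comparison, L-Hor-like and fibroblast-like, lay apart in each library. The share of single cells varied within a class and library with an SD of 3.23 to 9.64 points. Of the member UMIs, 54.9% to 60.2% came from the large subunit in the 34 combinations of class and library.

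**Figure D2:**
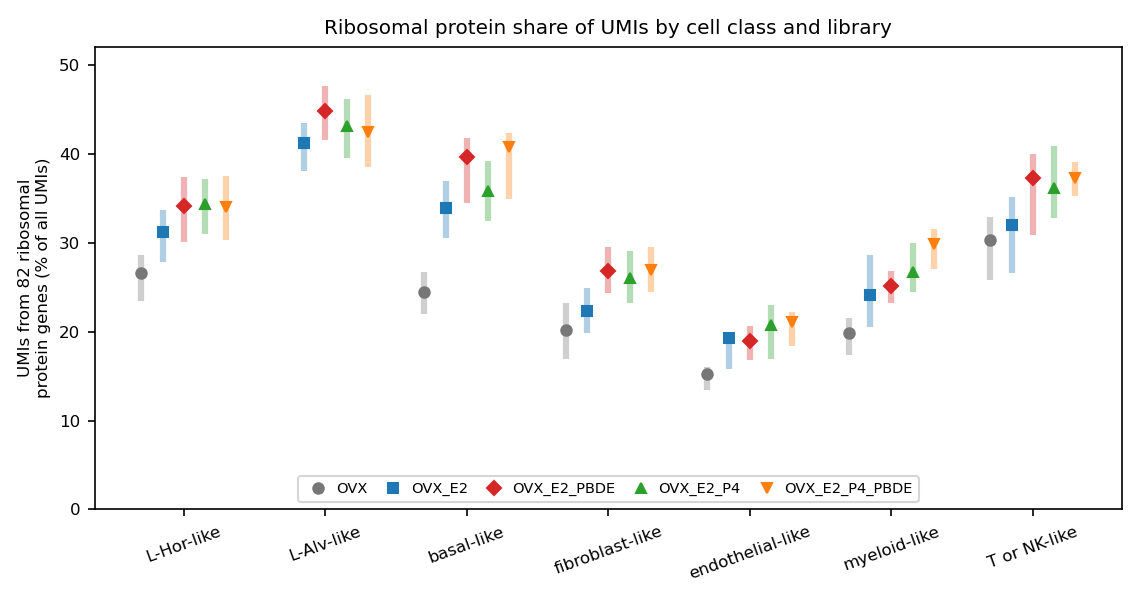
Share of UMIs from the 82 members (percent of all UMIs) in 7 cell classes and 5 libraries. Points are the share over all UMIs of the class and bars run from the lower to the upper quartile of single cells. L-Alv-like cells lie between 41.2% and 44.8%, endothelial-like cells between 15.3% and 21.1%, and OVX (grey) has the lowest value in each of the 6 classes it holds.

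In L-Hor-like cells the share was 26.5% for OVX (95% exact binomial interval 26.4% to 26.6%), 31.2% for OVX_E2, 34.3% for OVX_E2_P4, 34.1% for OVX_E2_PBDE and 34.1% for OVX_E2_P4_PBDE. OVX was the lowest, OVX_E2 came next, and the remaining 3 lay within 0.26 points of one another. In fibroblast-like cells it was 20.2% for OVX, 22.3% for OVX_E2, 26.1% for OVX_E2_P4, 26.8% for OVX_E2_PBDE and 26.9% for OVX_E2_P4_PBDE, again lowest in OVX and next lowest in OVX_E2. OVX_E2 is the control of 2 comparisons and is itself compared with OVX, so these differences are not independent of one another. In single L-Hor-like cells the quartiles ran from 23.4% to 28.6% in OVX, from 27.8% to 33.7% in OVX_E2 and from 30.1% to 37.4% in OVX_E2_PBDE. Depth differed too, with a median of 6540 (OVX), 9516 (OVX_E2), 10462 (OVX_E2_PBDE), 8944 (OVX_E2_P4) and 5537 (OVX_E2_P4_PBDE) UMIs per L-Hor-like cell. The Spearman correlation of the single-cell share with UMIs per cell was 0.17 to 0.33 over the libraries in L-Hor-like cells. Among fibroblast-like cells it was -0.13 to 0.23. The part of depth in the share differences was not tested.

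The first comparison asked what estradiol treatment went with after ovariectomy. The share was higher in OVX_E2 than in OVX by 4.61 points in L-Hor-like cells (interval 4.51 to 4.72) and by 2.11 points among fibroblast-like cells (2.07 to 2.15). The difference had the same direction in the other 4 classes that OVX held, from 1.75 points in T or NK-like to 9.51 points in basal-like cells. In basal-like cells stress genes took 0.601% in OVX_E2 and 1.21% in OVX, and proliferating barcodes made up 15.5% and 0%. Mitochondrial UMIs, a sign of cell quality, took 3.11% in OVX_E2 against 3.42% in OVX in L-Hor-like cells, and 1.53% against 1.83% among fibroblast-like cells. Genes of the dissociation stress response took 0.522% against 0.674% and 0.728% against 0.933%. Fibroblast markers in the L-Hor-like cells summed to 2570 CPM in OVX and 1648 CPM in OVX_E2, and proliferation markers to 0 and 7.79 CPM. The part of these values in the result was not tested.

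In L-Hor-like cells 16 of the 81 members with at least 100 UMIs over both libraries were at least 1.3-fold higher in OVX_E2 and 1 was lower. Of all 5121 genes at that minimum 9.69% were higher and 36.9% lower by that fold. The median log2 ratio was 0.25 over members and -0.24 over all genes. Above 0 lay 73 of the 81 members and 29.6% of all genes. Rpl10, a late-joining protein of the large subunit whose gene lies on the X chromosome, had 3827 CPM in OVX and 5989 CPM in OVX_E2, a ratio of 1.56 (interval 1.51 to 1.63). Rpl10a stood at 2421 and 3733 CPM, a ratio of 1.54 (1.47 to 1.62). Rpl28 stood at 1779 and 2593 CPM, a ratio of 1.46. The lowest ratios were those of Rpl6l (607 and 450 CPM, 0.740), Rps27 (7392 and 5890 CPM, 0.797) and Rplp1 (5296 and 4273 CPM, 0.807), a protein of the stalk that recruits elongation factors. With scaling by the median ratio of all genes, 63 members were past the fold, and with scaling to the UMIs of other genes 33, all higher. The count therefore depends on the reference. Both scalings moved every ratio of this comparison upward by a constant, so they could not test its direction. The OVX side rests on 92 cells.

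In fibroblast-like cells 4 of 82 members were higher in OVX_E2 and 1 lower, beside 13.9% and 10.5% of all 8996 genes, and the medians were 0.16 for members and 0.04 for all genes. The 4 were Rpl39l (25.2 CPM in OVX and 40.0 CPM in OVX_E2, ratio 1.59, interval 1.35 to 1.87), Rpl10a (1735 and 2282 CPM, 1.32), Rpl22l1 (1430 and 1880 CPM, 1.32) and Rpl12 (932 and 1215 CPM). Rpl6l was the lower one, at 406 and 280 CPM (0.690). Rps28 had 2318 and 1990 CPM (0.859) and Rpl23a 2928 and 2550 CPM (0.871), both short of the fold. Rpl10a was past the fold in both classes, and Rpl6l was lower in both. The counts for fibroblast-like cells became 1 higher and 1 lower with scaling by the median ratio of all genes, and 7 higher and 1 lower with scaling to the UMIs of other genes.

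The second comparison added progesterone to estradiol. The share was higher in OVX_E2_P4 than in OVX_E2 by 3.15 points in L-Hor-like cells (3.10 to 3.21) and 3.72 points among fibroblast-like cells (3.68 to 3.77), and by 1.42 to 4.15 points in the other 5 classes. Mitochondrial UMIs were also higher, 3.95% against 3.11% in L-Hor-like and 2.33% against 1.53% among fibroblast-like cells. Luminal markers in the fibroblast-like cells summed to 965 CPM in OVX_E2_P4 and 590 CPM in OVX_E2. In the L-Hor-like cells L-Alv markers summed to 298 against 99.3 CPM and fibroblast markers to 1055 against 1648 CPM, and the part of these values in the result was not tested. In L-Hor-like cells 4 of 81 members were past 1.3-fold, all higher, beside 6.98% of 7337 genes higher and 14.1% lower. The count became 12 with scaling by the median ratio of all genes and 11 with scaling to the UMIs of other genes, all higher. They were Rps26 (2271 and 3204 CPM, ratio 1.41, 1.38 to 1.44), Rpl36 (2817 and 3741 CPM, 1.33), Rplp1 (4273 and 5671 CPM, 1.33) and Rpl6l (450 and 594 CPM, 1.32). The lowest were Rpl7l1 (28.2 and 23.7 CPM, 0.840), Rps27l (956 and 807 CPM, 0.844) and Rpl3 (5427 and 4929 CPM, 0.908), a core protein near the peptidyl transferase center. The interval of Rpl7l1, 0.669 to 1.06, includes 1.

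In fibroblast-like cells 13 of 82 members were past the fold in OVX_E2_P4, all higher, beside 7.18% of 7660 genes higher and 11.7% lower. The count became 22, all higher, with either of the other scalings. The median log2 ratio was 0.21 for members and -0.07 for all genes. The highest were Rps26 (1328 and 1901 CPM, 1.43), Rps28 (1990 and 2829 CPM, 1.42) and Rps12 (1942 and 2661 CPM, 1.37), and the remaining ones were Rplp1, Rps27, Rpl41, Rpl38, Rps29, Rpl5, Rpl6l, Rpl23a, Rps21 and Rpl36. All 4 members past the fold in L-Hor-like cells were also among these 13, an overlap that was not counted over all genes. The lowest ratios were Rpl7l1 (26.8 and 22.4 CPM, 0.836), Rpl3 (3000 and 2683 CPM, 0.894) and Rpl22l1 (1880 and 1788 CPM, 0.951).

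The third comparison added PBDEs to estradiol. The share was higher in OVX_E2_PBDE than in OVX_E2 by 2.97 points in L-Hor-like cells (2.91 to 3.02) and 4.45 points among fibroblast-like cells (4.41 to 4.49). It was higher in 6 of 7 classes, by up to 5.77 points in basal-like cells. The mean share of single basal-like cells was 37.9% against 33.6%. Basal-like clusters of both PBDE libraries also scored higher on L-Hor and L-Alv markers than those of the other libraries, and the part of this was not tested. In endothelial-like cells the share difference was -0.347 points, although the mean share of single cells there was higher with PBDEs (19.0% against 18.0%). Stress genes took 0.505% against 0.522% in L-Hor-like and 0.511% against 0.728% among fibroblast-like cells, and fibroblast markers in fibroblast-like cells summed to 23395 against 31468 CPM. In L-Hor-like cells 7 of 81 members were at least 1.3-fold higher and 1 lower, beside 3.17% and 18.7% of 7169 genes. Scaling by the median ratio of all genes changed that split to 19 higher and 0 lower, and scaling to the UMIs of other genes to 13 and 1. In fibroblast-like cells 17 of 82 were higher and none lower, beside 2.57% and 18.6% of 8888 genes. With the same 2 scalings 43 and 29 were higher and none lower. The median log2 ratios were 0.11 and 0.23 for members against -0.16 in both classes for all genes.

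Rps28, a protein of the small subunit at the mRNA exit, had the highest ratio of all members in the third comparison in 6 of 7 classes, the exception being myeloid-like cells, where Rpl38 was at 1.60 and Rps28 at 1.59. In L-Hor-like cells it stood at 3376 CPM (OVX), 3561 CPM (OVX_E2), 4608 CPM (OVX_E2_P4), 6632 CPM (OVX_E2_PBDE) and 7471 CPM (OVX_E2_P4_PBDE). In fibroblast-like cells the levels were 2318, 1990, 2829, 3926 and 4562 CPM in the same order. Both PBDE libraries lay above the other 3 in each class. The ratio of OVX_E2_PBDE to OVX_E2 was 1.86 in L-Hor-like cells (1.83 to 1.90) and 1.97 among fibroblast-like cells (1.94 to 2.01), and over all 7 classes it ran from 1.59 in myeloid-like to 2.34 in T or NK-like cells.

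Rps29, a zinc-binding protein of the small subunit, had 4917, 4177, 6684, 5347 and 7297 CPM in L-Hor-like cells of OVX, OVX_E2, OVX_E2_PBDE, OVX_E2_P4 and OVX_E2_P4_PBDE. In fibroblast-like cells it had 4764, 4458, 7758, 5907 and 8455 CPM. Its ratio in the third comparison was 1.60 (1.57 to 1.63) and 1.74 (1.72 to 1.76), and over the 7 classes it ran from 1.44 to 1.99. Rpl38 (1.41 to 1.60) and Rps21 (1.41 to 1.65) were also higher in every class. Rpl36 had a ratio of 1.47 in L-Hor-like and 1.54 among fibroblast-like cells. Rpl41, Rps27 and Rps21 completed the 7 higher members of L-Hor-like cells with Rps28, Rps29, Rpl38 and Rpl36. All 7 were among the 17 of fibroblast-like cells, an overlap that was not counted over all genes. Those 17 also held Rps20, Rpl36a, Rplp2, Rpl37, Rplp1, Rpl5, Rps25, Rpl30, Rps26 and Rps12.

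The members with the lowest ratios in the third comparison were Rpl6l (450 CPM in OVX_E2 and 319 CPM in OVX_E2_PBDE, 0.710), Rpl29 (1427 and 1112 CPM, 0.779) and Rps2 (3778 and 2967 CPM, 0.785) in L-Hor-like cells. In fibroblast-like cells they were Rpl7l1 (26.8 and 20.7 CPM, 0.771, interval 0.639 to 0.935), Rpl6l (280 and 228 CPM, 0.812) and Rpl29 (809 and 680 CPM, 0.839). Of these only Rpl6l in L-Hor-like cells passed the fold, and Rpl29 is a gene whose UMIs are split with Gm10709.

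The fourth comparison added PBDEs to estradiol with progesterone and shares no library with the third. The share of UMIs differed little, by -0.26 points in L-Hor-like cells (-0.319 to -0.200) and 0.834 points among fibroblast-like cells (0.777 to 0.890). The difference was -0.689 points in L-Alv-like cells, where the median of single cells was higher with PBDEs (43.0% against 42.4%). Proliferating barcodes made up 22.3% of the L-Alv-like cells in OVX_E2_P4_PBDE and 1.72% in OVX_E2_P4. Of the libraries of this comparison, only OVX_E2_P4 held a separate proliferating cluster (99 cells) at the clustering resolution used. In basal-like cells the difference was 4.87 points, and the mean share of single cells was 38.3% against 35.6%. Mitochondrial UMIs were lower with PBDEs, 2.90% against 3.95% in L-Hor-like and 1.38% against 2.33% among fibroblast-like cells, and stress genes took 0.393% against 0.552% and 0.518% against 0.553%. Fibroblast markers in fibroblast-like cells summed to 20344 against 29401 CPM, and the part of these values in the result was not tested. In L-Hor-like cells 3 of 81 members were past 1.3-fold higher and 3 lower, beside 6.77% and 18.8% of 6840 genes. In fibroblast-like cells 4 of 82 were higher and 1 lower, beside 6.34% and 16.6% of 6751 genes. The median log2 ratios were -0.06 and -0.02 for members and -0.10 and -0.08 for all genes. Under scaling by the median ratio of all genes the medians of members became 0.0346 and 0.0605, and the L-Hor-like split became 7 higher and 1 lower.

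Rps28 again had the highest ratio in these classes, 1.62 in L-Hor-like (1.60 to 1.65) and 1.61 among fibroblast-like cells (1.58 to 1.65), and over the 7 classes it ran from 1.42 in T or NK-like to 2.10 in basal-like cells. Rpl41 stood at 11754 and 16666 CPM in L-Hor-like cells (ratio 1.42, 1.40 to 1.43) and at 7583 and 10370 CPM in fibroblast-like cells (1.37, 1.35 to 1.39). Rps29 had ratios of 1.36 and 1.43. Rpl36 passed the fold in fibroblast-like cells at 1.35 and had 1.28 in L-Hor-like cells. The 3 members higher in L-Hor-like cells, Rps28, Rpl41 and Rps29, were all among the 7 of the third comparison, and the 4 of fibroblast-like cells were all among the 17. Over all members the log2 ratios of the third and the fourth comparison had a Spearman correlation of 0.51 in each of these classes, over 81 and 82 genes, and of 0.08 to 0.47 in the other 5 classes. Neither the overlap nor the correlation was computed over all genes, so they cannot be read as particular to the members. Genes are not independent replicates, and the libraries of a comparison are shared by all of them.

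The lower members of the fourth comparison in L-Hor-like cells were Rpl22l1 (1243 CPM in OVX_E2_P4 and 855 CPM in OVX_E2_P4_PBDE, ratio 0.688, 0.660 to 0.717), Rpl10a (4413 and 3307 CPM, 0.749) and Rplp0 (6139 and 4654 CPM, 0.758), the stalk base protein. In fibroblast-like cells only Rpl7l1 passed the fold (22.4 and 14.5 CPM, 0.654, interval 0.466 to 0.891). Rpl39l (0.809), Rpl7 (0.823) and Rpl3 (0.864) came next, and the interval of Rpl39l included 1. Rpl7l1 had under 200 UMIs there and is named because it is the single lower member. Adding the UMIs of near-identical copies to their members left 2 lower members in L-Hor-like cells.

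Rps28, Rps29 and Rpl41, which had high ratios in both PBDE comparisons, have a short coding sequence, a feature that the choice of members did not use. It was noticed after these values had been seen and is given as a description. The coding length of 81 members in GENCODE M21 ran from 75 bases in Rpl41 to 1257 bases, and 11 had at most 300 bases. These were Rpl41, Rpl39, Rpl39l, Rps29, Rps28, Rpl38, Rps21, Rps27, Rps27l, Rpl37a and Rpl37. Rpl36, with 315 bases, was not among them. Rpl39 and Rpl39l, with 153 bases each, were not past the fold in fibroblast-like cells in either PBDE comparison. In the third comparison the Spearman correlation of the log2 ratio with coding length was -0.75 in L-Hor-like (80 genes) and -0.69 among fibroblast-like cells (81 genes), and between -0.78 and -0.56 in all 7 classes. In the fourth it was -0.65 and -0.67, with a range of -0.67 to -0.32. With progesterone added to estradiol it was -0.54 and -0.57, with a range of -0.64 to -0.25. For OVX_E2 against OVX it was 0.30 and -0.12. The points of a comparison share 2 libraries. For all other genes of that length range in the same cells the correlation was weaker, -0.13 in both classes in the third comparison and -0.28 and -0.12 in the fourth.

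**Figure D3:**
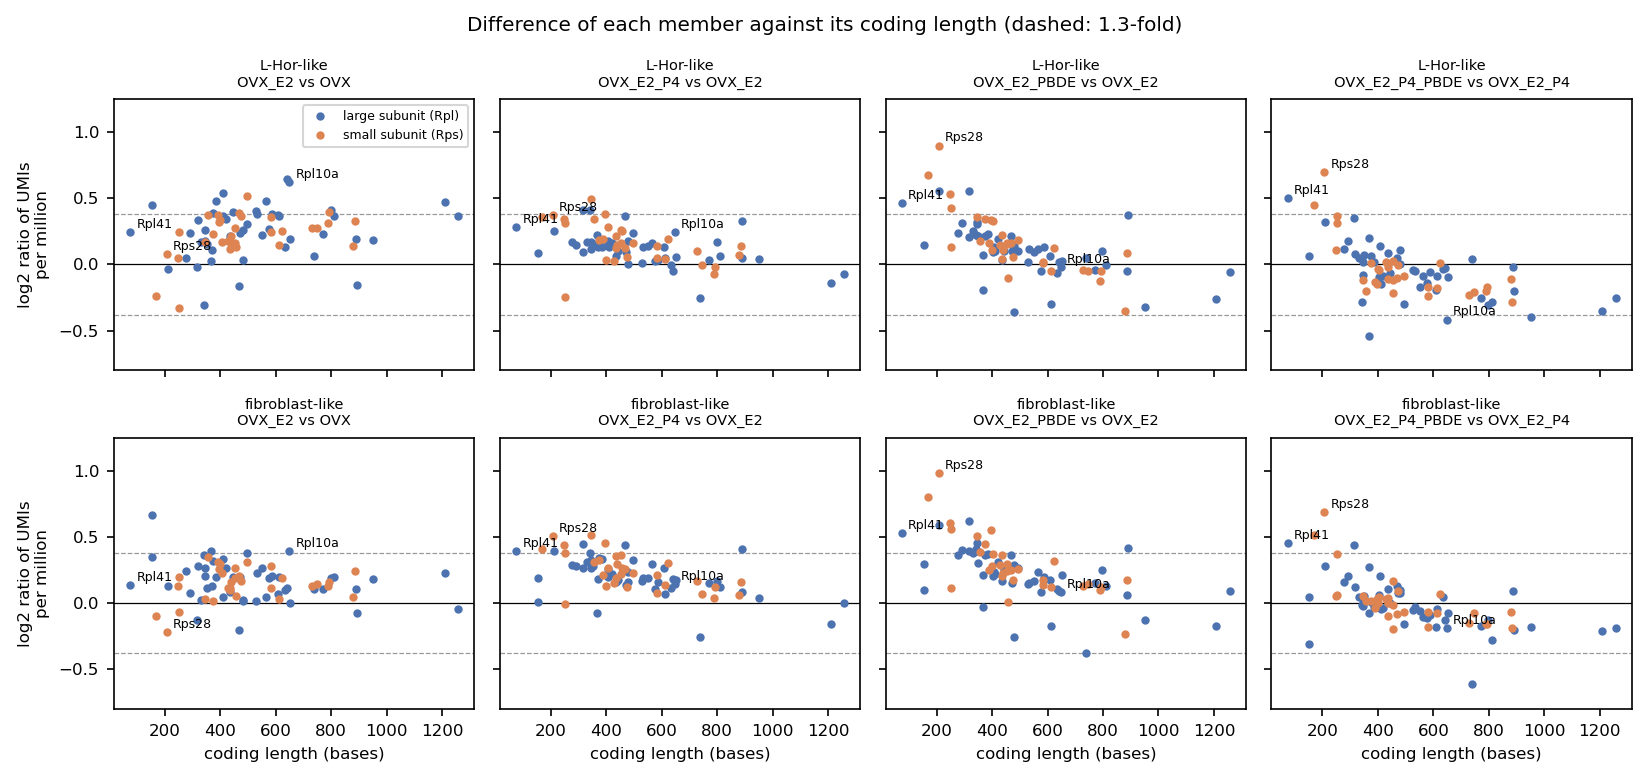
Log2 ratio of CPM for each member with a coding length, against that length in bases, for 4 comparisons in L-Hor-like (top) and fibroblast-like cells (bottom). Blue points are large-subunit and orange points small-subunit genes, and dashed lines mark 1.3-fold. In both PBDE comparisons the points fall from short to long genes, with Rps28 highest, while OVX_E2 against OVX shows no such fall.

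The 11 short members took 17.0% (OVX), 15.3% (OVX_E2), 16.3% (OVX_E2_P4), 18.9% (OVX_E2_PBDE) and 20.7% (OVX_E2_P4_PBDE) of the member UMIs of L-Hor-like cells. In fibroblast-like cells the values were 16.3%, 15.6%, 17.0%, 19.0% and 20.8% in the same order. Both PBDE libraries were above every library without PBDEs, and the same held in each of the other 5 classes. In the third comparison the median log2 ratio of the short members was 0.45 in L-Hor-like and 0.53 among fibroblast-like cells, against 0.10 and 0.21 for the longer ones. In the fourth the short members had 0.31 and 0.20 and the longer ones -0.09 and -0.04. Of the 70 longer members, 20 lay above 0 in L-Hor-like cells and 27 among fibroblast-like cells. Without the short members, the share difference of the third comparison was 1.27 points in L-Hor-like and 2.86 points among fibroblast-like cells, and that of the fourth was -1.72 and -0.313 points. Genes of at most 300 coding bases that are not members also took more of the remaining UMIs in L-Hor-like cells. Their share was 12.5% against 11.2% in the third and 13.3% against 11.7% in the fourth comparison. In endothelial-like cells they took less with PBDEs in both comparisons (7.84% against 7.93%, and 8.21% against 8.36%), and in T or NK-like cells less in the fourth (13.1% against 13.6%). The part of these genes' shift in the members' values was not tested.

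**Figure D4:**
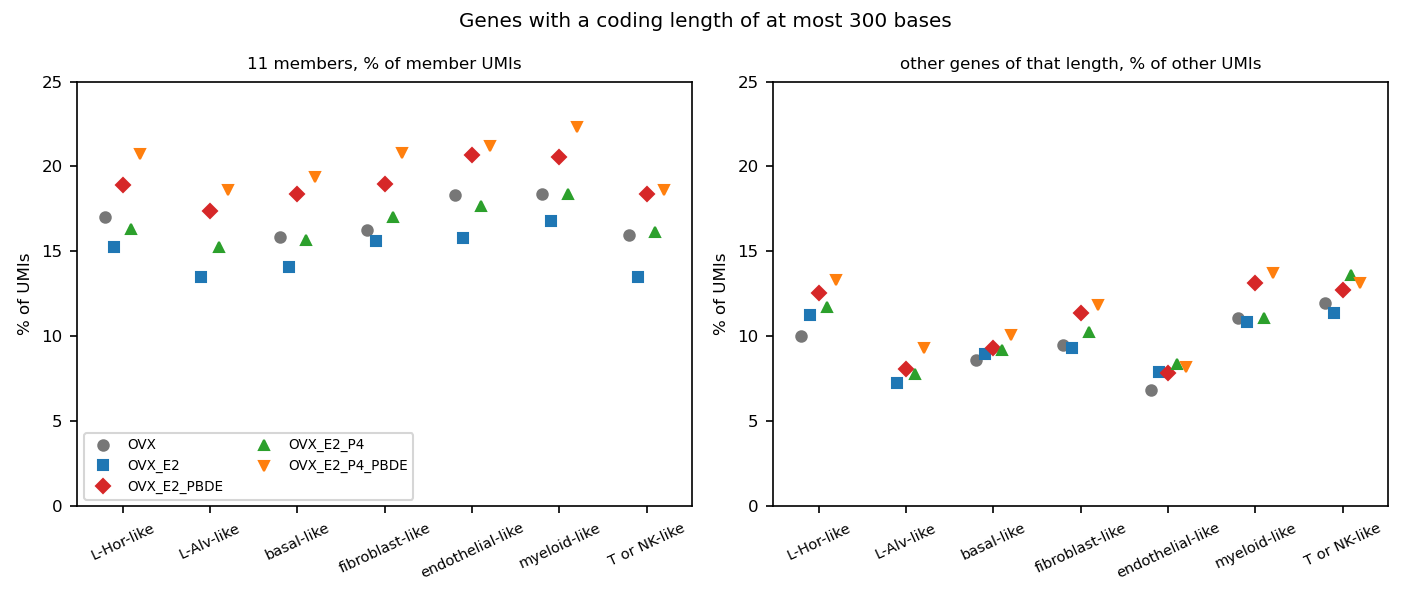
Share of UMIs from genes with a coding length of at most 300 bases, in 7 cell classes and 5 libraries. The left panel gives the 11 short members as percent of all member UMIs and the right panel the other genes of that length as percent of all UMIs not from members. The 2 PBDE libraries (red, orange) lie above the other libraries in every class on the left.

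Most members took a similar part of the member UMIs in each cell class. That part was averaged over the libraries that hold the class, which leaves OVX out for L-Alv-like cells. Between the highest and the lowest class it differed by a median of 1.33-fold, and for 68 of 82 members by less than 1.5-fold. The same spread was not computed over all genes. The 5 with the widest spread and enough UMIs were Rps27l, Rpl22l1, Rps29, Rps21 and Rpsa. Rps27l, a paralog of Rps27 that is induced by p53, took 0.457% of the member UMIs in myeloid-like and 0.135% in T or NK-like cells, 3.38-fold apart and in the same order in 5 of 5 libraries. Rps29 took 3.84% in myeloid-like and 1.77% in L-Hor-like cells (2.17-fold). Rps21 took 1.09% in endothelial-like and 0.601% in myeloid-like cells (1.81-fold). Rpsa, which is also known as the laminin receptor precursor, took 1.18% in T or NK-like and 0.662% in endothelial-like cells (1.78-fold). The order held in 5 of 5 libraries for each of these 3 genes. The classes were formed without these genes, and the immune classes are small.

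**Figure D5:**
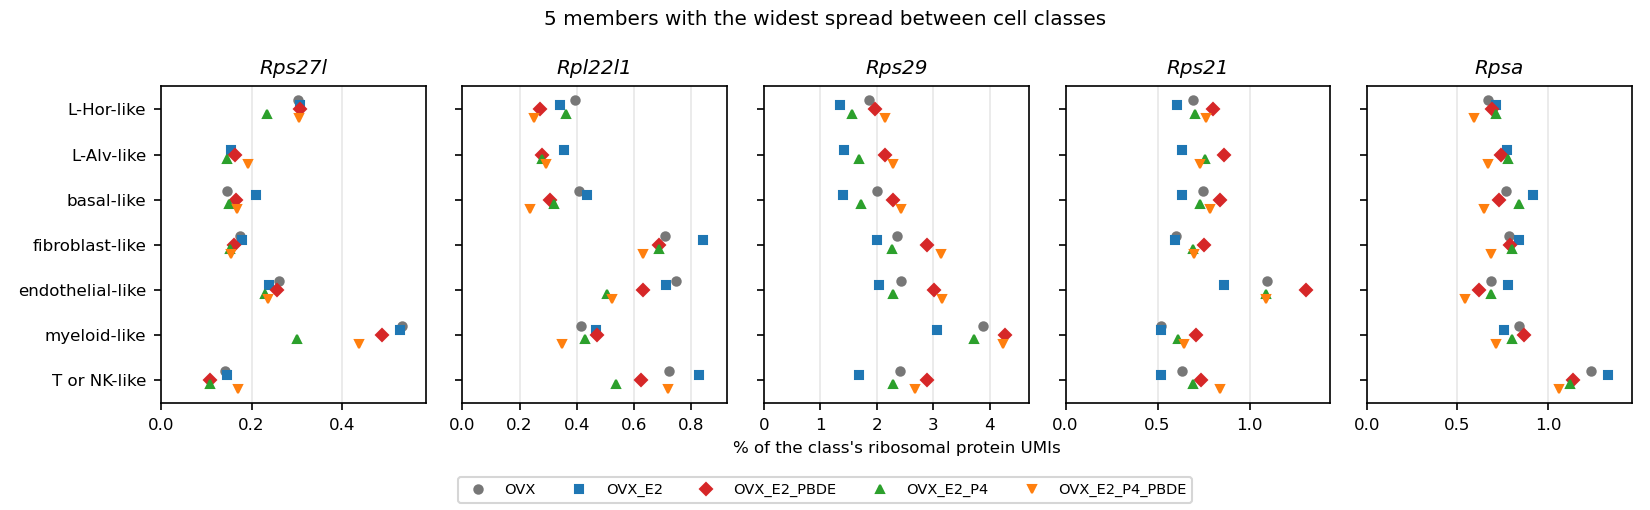
Percent of a class's member UMIs from Rps27l, Rpl22l1, Rps29, Rps21 and Rpsa, by cell class (rows) and library (colors). Each panel has its own axis from 0. Rps27l and Rps29 lie highest in myeloid-like cells, Rps21 in endothelial-like cells and Rpsa in T or NK-like cells in all 5 libraries, and Rpl22l1 is higher in fibroblast-like than in L-Hor-like cells in all 5.

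Of the paralog pairs, Rpl22l1 and Rpl22 changed their order with the cell class. Rpl22l1 took 0.710% of the member UMIs in fibroblast-like and 0.302% in L-Alv-like cells (2.35-fold, in 4 of 4 libraries that hold both). In fibroblast-like cells it stood at 1430, 1880, 1842, 1788 and 1695 CPM in OVX, OVX_E2, OVX_E2_PBDE, OVX_E2_P4 and OVX_E2_P4_PBDE, above Rpl22 in each (823, 941, 1217, 1183 and 1162 CPM). Its UMIs there came to 146% to 200% of those of Rpl22. In L-Hor-like cells they came to 50.8% to 96.0%, in L-Alv-like cells to 61.7% to 85.1% and in basal-like cells to 57.2% to 93.5%, below Rpl22 in every library. Endothelial-like cells had 102% to 195% and T or NK-like cells 113% to 176%, while myeloid-like cells lay on either side of equality, at 69.0% to 119%. The epithelial classes and the fibroblast-like cells therefore did not overlap. In the third comparison this percentage was lower with PBDEs in all 7 classes, for example 52.2% against 70.2% in L-Hor-like cells. In the fourth it was lower in 4 classes (50.8% against 74.7% in L-Hor-like cells) and higher in L-Alv-like (68.4% against 61.7%), endothelial-like (140% against 102%) and T or NK-like cells (140% against 113%).

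Rpl39l, a paralog of Rpl39 known for its expression in the testis, was found mainly in fibroblast-like cells. It had 25.2, 40.0, 42.9, 40.3 and 32.5 CPM there in OVX, OVX_E2, OVX_E2_PBDE, OVX_E2_P4 and OVX_E2_P4_PBDE, from 130 to 609 UMIs. L-Hor-like cells had 0.552 to 3.88 CPM from 2 to 20 UMIs, and myeloid-like cells had 0 UMIs in all 5 libraries. Its UMIs came to 0.710% to 1.03% of those of Rpl39 among fibroblast-like cells. In endothelial-like cells they came to 0% to 0.589%, the highest from 13 UMIs in OVX_E2_PBDE. In L-Alv-like cells they came to at most 0.115%, from 51 UMIs in OVX_E2_P4. Rpl7l1, which acts in ribosome assembly, came to at most 4.33% of Rpl7 in any class, and its highest share of member UMIs was in endothelial-like cells, on too few UMIs for the list of 5 above.

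The level of Rpl6l relative to Rpl6 varied less between classes of a library than between OVX and the PBDE library OVX_E2_PBDE. Its UMIs came to 14.7% to 19.8% of those of Rpl6 over the 6 classes of OVX and to 9.66% to 11.5% in OVX_E2. They came to 7.35% to 10.4% in OVX_E2_PBDE, 11.8% to 14.7% in OVX_E2_P4 and 12.1% to 14.1% in OVX_E2_P4_PBDE. Rpl6l had no coding length from GENCODE M21, and its full sequence was not compared with that of Rpl6 here. Rps27rt, a near-identical copy of Rps27 that is no member, also differed between libraries. It stood at 276, 163, 357, 303 and 694 CPM in L-Hor-like cells of OVX, OVX_E2, OVX_E2_PBDE, OVX_E2_P4 and OVX_E2_P4_PBDE, with ratios of 2.18 and 2.29 in the PBDE comparisons.

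Other genes of the translation apparatus did not follow the members in every comparison. Among 17 translation factors and other genes with TOP mRNAs, 5 were higher and 1 lower in OVX_E2 than in OVX in L-Hor-like cells, beside 9.69% and 36.9% of all genes, with a median log2 ratio of 0.31. Eef2, the elongation factor that moves the ribosome along the mRNA, had a ratio of 1.53, Npm1 1.48 and Eef1b2 1.46. In the fourth comparison 0 of the 17 were higher and 7 lower in L-Hor-like cells (median -0.33), and 0 and 3 among fibroblast-like cells (median -0.23). Of all genes 18.8% and 16.6% were lower there, so the fibroblast-like count is near the background. Eif4b, a helicase cofactor of initiation, had 178 and 88.8 CPM in L-Hor-like cells (0.499), Eef1a1 a ratio of 0.676 and Tpt1 0.682. All 17 lay below 0 in both classes in this comparison, where the median member lay at -0.06 and -0.02. In the L-Hor-like class 38.1% of all genes lay above 0 there.

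Genes of ribosome biogenesis had median ratios below those of the members with estradiol in the L-Hor-like and the fibroblast-like class. In L-Hor-like cells of OVX_E2 against OVX, 0 of 14 with enough UMIs were higher and 9 lower (median -0.72), among them Myc (0.366), Gnl3 (0.368) and Nop58 (0.544), beside 9.69% and 36.9% of all genes. In fibroblast-like cells 1 of 25 was higher and 7 lower (median -0.24), beside 13.9% and 10.5% of all genes. In basal-like cells 6 of 10 were higher and 3 lower (median 0.53, members 0.50), with 60 cells on the OVX side. All 1631 basal-like genes at the minimum had a median of -0.05. How many of them passed the fold is not given here, so the 6 and 3 have no such background beside them. Above 0 lay 6 of the 10 and 47.4% of all 1631. The median of all genes was -0.24 for the L-Hor-like class and 0.04 for the fibroblast-like class. The L-Hor-like values rest on few UMIs in OVX. The 10 regulators of TOP mRNA translation had 0 higher and 1 lower of 6 in the L-Hor-like class, and 2 higher and 1 lower of 10 among fibroblast-like cells. Of the genes for mitochondrial ribosomal proteins, 4 of 67 were higher and 8 lower in L-Hor-like cells with estradiol (9.69% and 36.9% of all genes), and 9 of 71 higher and 0 lower in the fourth comparison (6.77% and 18.8%). In fibroblast-like cells 7 of 71 were higher and 0 lower with estradiol (13.9% and 10.5%), and 3 of 68 higher and 4 lower in the fourth comparison (6.34% and 16.6%). Of the 5 ribosomal proteins under other symbols, only Rps27rt passed the fold upward in the third and the fourth comparison, in both classes. Gnb2l1, the scaffold protein of the small subunit now called Rack1, had ratios of 0.769 and 0.781 in the fourth comparison.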

How the data were processed

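The authors made the deposited matrices of UMI counts per gene and barcode with Cell Ranger 2.0.0 on mm10 from 10x Chromium 3′ v2 libraries, and the counts are not normalized. Barcodes under 500 genes, under 1000 UMIs or over 10% mitochondrial UMIs were removed, which left 2229 of 2233 barcodes in OVX_E2. The study gives 2229 barcodes for that library before its removal of low-quality barcodes. Each library was clustered with Seurat 5.3.0 (10 components, 2000 variable genes, resolution 0.3 for OVX and 0.5 for the others), without ribosomal, mitochondrial and listed genes. Immune clusters of all libraries were then pooled and clustered again at a resolution of 0.5. Clusters that looked like luminal multiplets were left out as clusters, with no doublet caller, and free RNA was not estimated. The deposited counts were summed per class and library and given as CPM, with exact Clopper-Pearson or conditional binomial 95% intervals and, for log2 ratios, 1 UMI added. With 1 library per group no test was run, and a member was called at a CPM ratio of 1.3-fold where the 2 libraries together held 100 UMIs or more of the gene. Cells are not replicates. The members, lists and tests were chosen with earlier results of these data known. Named genes are all paralogs with their parents, the 8 highest members, the 5 with the widest class spread (at least 200 expected UMIs), and the 3 highest and 3 lowest ratios per comparison and class (at least 200 UMIs), and 1 gene of these is not reported here. Copies were found with blastn 2.17.0 over the last 300 bases of transcripts. Scripts were tested on simulated data.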

Additional observations from a re-analysis of the deposited data

Results flagged for a closer look

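The difference between the libraries with and without PBDEs had opposite signs in the absence and in the presence of progesterone for some results, each outside its counting interval. These contrasts were not tested, since each group is 1 library. The share of UMIs from the members differed by 2.97 points with estradiol and by -0.26 points with estradiol and progesterone in L-Hor-like cells. It differed by 3.54 and -0.689 points in L-Alv-like cells, and by -0.347 and 0.402 points in endothelial-like cells. These signs depend on the summary. The mean share of single endothelial-like cells was 19.0% with and 18.0% without PBDEs under estradiol, and 20.6% and 20.7% with progesterone added, the reverse of both signs. In L-Alv-like cells with progesterone the median of single cells was higher with PBDEs (43.0% against 42.4%) and their mean lower (42.4% against 42.6%). Proliferating barcodes made up 22.3% of these cells with PBDEs and 1.72% without, and their part in the difference was not tested. Among the named genes, Rpl29 had ratios of 0.779 and 1.08 in L-Hor-like cells and 0.839 and 1.05 in fibroblast-like cells, and Rpl7 had ratios of 1.09 and 0.823 in fibroblast-like cells. None of these single-gene ratios reached 1.3-fold upward, and the UMIs of Rpl29 are split with a near-identical copy.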

How the results depend on the processing

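No paired analysis was possible because each group is 1 library and the labels carry no replicate numbers. Of 64 share differences under alternatives, 26 stayed within the counting interval, 37 moved beyond it and 1 reversed. Of 48 counts of members past 1.3-fold, 12 moved by more than 1.5 times, and of 48 medians 3 reversed. In each list of 4 the order is OVX_E2 to OVX, then OVX_E2_P4, OVX_E2_PBDE and OVX_E2_P4_PBDE to their controls. The cause of these shifts was not tested.

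Without the short members, chosen after seeing the data, the differences were 4.37, 2.31, 1.27 and -1.72 points (L-Hor-like) and 1.92, 2.77, 2.86 and -0.313 points (fibroblast-like), the last of them reversed. As means of single cells they were 4.98, 3.29, 2.71 and -0.372 points (L-Hor-like) and 2.41, 3.67 and 4.36 points for the first 3 (fibroblast-like). Without cells above 2 times the median UMIs they were 5.58, 3.29 and 2.67 points (L-Hor-like), and 4.51 points for OVX_E2_PBDE (fibroblast-like). With mitochondrial UMIs out of the denominator they were 3.57, 3.19 and -0.656 points for the last 3 (L-Hor-like) and 4.00, 4.53 and 0.589 points (fibroblast-like). With the copies added, also chosen after seeing the data, they were 3.48, 2.91 and -0.111 points for the last 3 (L-Hor-like) and 2.06, 3.97, 4.53 and 1.06 points (fibroblast-like). With -ps symbols added they were 3.22 points for OVX_E2_P4 (L-Hor-like), and 2.07 and 3.78 points for the first 2 (fibroblast-like). A mitochondrial maximum of 5% gave 3.80 and 0.726 points for OVX_E2_P4 and OVX_E2_P4_PBDE, and a clustering resolution of 1.0, which left a fibroblast cluster of OVX_E2_PBDE unnamed, gave 4.21 points for OVX_E2_PBDE, all in fibroblast-like cells.

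Scaling by the median ratio of all genes gave 63, 12 and 19 members past the fold in the first 3 comparisons (L-Hor-like) and 2, 22 and 43 (fibroblast-like), and turned the medians of OVX_E2_P4_PBDE to 0.0346 and 0.0605. Scaling to UMIs of other genes gave 33, 11 and 14 (L-Hor-like) and 8, 22 and 29 (fibroblast-like), and a median of 0.000297 for OVX_E2_P4_PBDE (fibroblast-like). The L-Hor-like values of OVX rest on 92 cells.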
